A study of Homo sapiens with 6 samples.

Results

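The mitochondrial ribosomal protein genes encode the protein parts of the mitoribosome, the ribosome inside mitochondria. They were taken from the count table as all protein-coding genes whose symbol is MRPL or MRPS followed by a number and at most 1 of the letters A, B and C. This gave 77 of the 28395 genes in the table, 49 with MRPL symbols (large subunit) and 28 with MRPS symbols (small subunit). RNA came from TC28a2 cells, an immortalised human chondrocyte line, 48 hours after transfection with an FAP overexpression vector (3 libraries) or a control vector (3 libraries). FAP, fibroblast activation protein, cleaves other proteins at the cell surface and is typical of activated fibroblasts. DRUG-seq, which tags and pools many samples before sequencing, was the library method. The comparison addresses which transcripts differ when FAP is made in excess.

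The mitoribosome translates the few messenger RNAs of the mitochondrial genome, which encode core subunits of the respiratory chain. All of its proteins are encoded in the nucleus, made in the cytosol and imported, and there they assemble with ribosomal RNA made in the mitochondrion. Some are homologues of bacterial ribosomal proteins and others are found only in mitochondrial ribosomes. Systematic names mark this: u for universal, b for shared with bacteria and m for mitochondria-specific. Of the 77 genes, 46 encode proteins of the first kind (u or b) and 31 of the m kind. MRPS18A (mL66) and MRPS30 (mL65) carry S symbols but sit in the large subunit in structures, and they were counted by symbol here. The gene once named MRPS36 is listed as KGD4 and was not a member.

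Total counts ran from 6275038 to 13839743 in FAP libraries and from 5736056 to 12446373 in control libraries. Levels are given as CPM, counts scaled to a common library size after TMM normalization. FAP itself was at 266 ± 73.4 CPM in FAP libraries and 0.532 ± 0.612 CPM in controls (SD, n = 3 each; log2 fold change 8.80, SE 0.30, adjusted p = 4.229e-14 by edgeR's quasi-likelihood test), so all 6 libraries matched their labels. The third FAP library differed from the other FAP libraries by a chi-square of 17.5 and 16.7 for each degree of freedom. The remaining FAP pair had 6.06. Spearman correlations did not set it apart in this way: 0.98235 with FAP replicate 1 and 0.98949 with replicate 2, against 0.98901 between those replicates. Log2 fold changes of described members that the third FAP library moved by over 1.5 times, those near 0 apart, are also given without it. Of 7 chondrocyte markers, SOX9 alone passed the low-count filter. COL2A1 reached at most 0.282 CPM in FAP libraries and 0.548 CPM in controls, and ACAN at most 0.847 and 1.64 CPM in the same order of groups. These cartilage matrix genes were near 0 in this line. The low-count filter was passed by 4 of 4 fibroblast markers, 3 of 4 macrophage and leukocyte markers and 1 of 4 endothelial markers, none of them called. Of these COL1A1, a fibroblast collagen gene, averaged 660 CPM in FAP libraries and 591 in controls. Levels of the others are not given here, and the markers were not used to name the cell type. Whether replicates were separate cultures is not in the labels, and all p-values rest on the spread of these 6 libraries, possibly a technical one. In bulk libraries, fewer cells of a kind and less RNA per cell cannot be told apart.

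The promoters of 4 members that the results below turn on are shown first, from RefSeq on GRCh38.p14. Each window runs from 250 bases before the annotated start to 50 bases after it, 5′ to 3′ on the strand of the gene. Capitals mark matches, on either strand, to 3 short motifs of factors known to act at genes for mitochondrial proteins: the NRF1 motif of 10 bases, CCGGAAG (ETS factors such as GABP) and AAGATGGC (YY1). MRPS9 and MRPL33 had the smallest p in their subunits, MRPL46 shares its upstream region with MRPS11, and MRPS34 was the small subunit gene with the highest level per length.
MRPS9 (chr2:105037819-105038118, + strand): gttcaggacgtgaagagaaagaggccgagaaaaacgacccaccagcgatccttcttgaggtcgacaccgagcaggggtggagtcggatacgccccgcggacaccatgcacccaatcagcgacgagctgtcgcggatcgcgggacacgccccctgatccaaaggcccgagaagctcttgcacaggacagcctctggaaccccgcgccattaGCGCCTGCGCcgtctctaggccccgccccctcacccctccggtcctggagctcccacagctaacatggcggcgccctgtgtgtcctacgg
MRPL33 (chr2:27771469-27771768, + strand): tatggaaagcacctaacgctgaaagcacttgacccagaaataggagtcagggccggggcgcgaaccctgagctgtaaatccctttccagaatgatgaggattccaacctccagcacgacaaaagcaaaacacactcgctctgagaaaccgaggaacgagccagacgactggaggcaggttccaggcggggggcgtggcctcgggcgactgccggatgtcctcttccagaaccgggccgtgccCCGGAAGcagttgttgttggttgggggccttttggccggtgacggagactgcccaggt
MRPL46 (chr15:88467339-88467638, - strand): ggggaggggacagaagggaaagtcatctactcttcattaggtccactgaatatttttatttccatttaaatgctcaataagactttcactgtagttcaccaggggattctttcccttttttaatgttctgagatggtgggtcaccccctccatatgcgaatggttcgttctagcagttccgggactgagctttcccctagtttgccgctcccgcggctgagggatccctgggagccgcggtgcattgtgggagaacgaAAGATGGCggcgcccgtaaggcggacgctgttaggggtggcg
MRPS34 (chr16:1773085-1773384, - strand): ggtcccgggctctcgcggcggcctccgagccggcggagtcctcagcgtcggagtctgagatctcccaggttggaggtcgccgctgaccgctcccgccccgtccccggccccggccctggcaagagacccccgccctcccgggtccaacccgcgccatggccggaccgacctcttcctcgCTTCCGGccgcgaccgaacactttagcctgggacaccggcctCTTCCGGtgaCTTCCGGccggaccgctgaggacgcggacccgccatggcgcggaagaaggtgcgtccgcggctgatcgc

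MRPS9 held 1 NRF1 match, beginning 40 bases before its start. MRPL33 held 1 ETS match, beginning 8 bases before the start, and MRPL46 held 1 YY1 match, beginning 8 bases after it. MRPS34 held 3 ETS matches, all on the opposite strand, within 71 bases before its start. Promoter windows were found for 69 of the 77 members. A YY1 motif was present in 21 of these (30.4%), against 6.52% of the 10531 tested genes with a window, and an ETS motif in 30 (43.5%), against 22.5%. For NRF1 the shares were close (9 members or 13.0%, against 13.5%). Of 4 further motifs searched, GGGGCGGGG (SP1) was in 26.1% of members and 32.6% of tested genes, CCAAT in 33.3% and 43.5%, CACGTG (E-box) in 13.0% and 12.9%, and TGACGTCA (CRE) in 1.45% and 3.87%. These 7 motifs were chosen with the sequences in view, and a match in letters is no evidence of binding. Members with a YY1 match had a median log2 fold change (FAP minus control) of -0.104, against -0.044 in those without. The values for ETS were -0.075 and -0.050. The gap was larger for NRF1 (-0.142 and -0.043) and E-box (-0.130 and -0.043), each with 9 matching members. For SP1 the values were -0.066 and -0.043, for CCAAT -0.048 and -0.052, and for CRE 0.052 (1 member) and -0.052. Those differences were not tested.

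All 76 members with counts passed the low-count filter, and their levels differed far more between genes than between the vectors. Counts per member and library ran from 114 to 4699. Transcripts of the 76 genes are short, with a median length of 1253 bases against 2880 for the tested genes with a length, so levels between genes are compared as CPM per kilobase. DRUG-seq as generally described reads near the 3′ end, where such scaling by length is only approximate. On this scale the median large subunit gene was at 80.3 CPM per kilobase in FAP libraries and 90.6 in controls, and the median small subunit gene at 70.0 in FAP libraries and 71.9 in controls. Genes with bacterial homologues had medians of 94.2 (FAP) and 91.8 (control) CPM per kilobase, and mitochondria-specific genes 57.2 (FAP) and 63.2 (control).

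**Figure D1:**
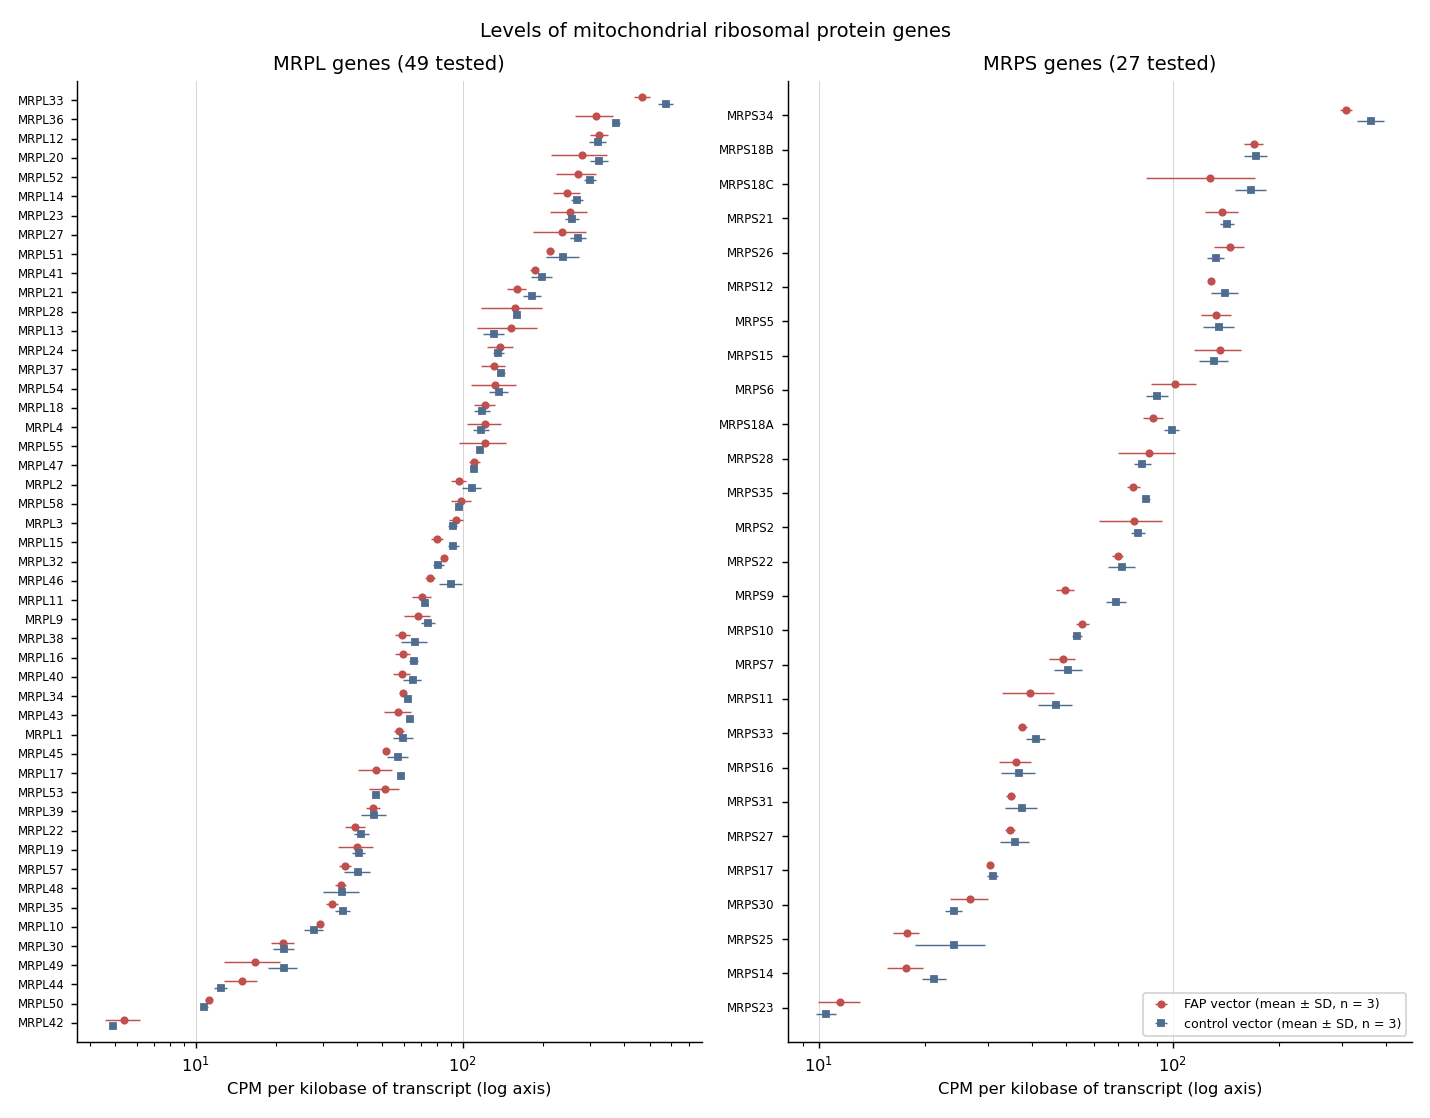
Level of each of the 76 tested members in CPM per kilobase of transcript (log axis), as mean ± SD of 3 FAP libraries (circles) and 3 control libraries (squares), with MRPL genes on the left and MRPS genes on the right. Means over the 6 libraries run from 5.13 for MRPL42 to 523 for MRPL33, while the 2 groups of a gene lie close together.

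MRPL33 (bL33m), a small protein of the large subunit, had the highest level per length, with 470.5 ± 33.3 CPM per kilobase in FAP libraries and 576 ± 37.5 in controls (SD, n = 3 each). MRPL36 (bL36m) followed at 314 ± 51.6 in FAP libraries and 376 ± 11.8 in controls. The small subunit gene MRPS34 (mS34), whose protein is needed for a stable small subunit, was at 309 ± 11.4 and 364 ± 31.5 CPM per kilobase in FAP and control libraries. MRPL12 (bL12m), the protein of the flexible stalk that receives translation factors, was at 325 ± 26.0 in FAP libraries and 320 ± 23.6 in controls. The levels of MRPL36, MRPS34 and MRPL12 did not differ from each other beyond their spread in FAP libraries. Next among small subunit genes came MRPS18B (mS40) at 170 ± 10.1 (FAP) and 172 ± 12.9 (control) and MRPS18C (bS18m) at 128 ± 43.6 (FAP) and 166 ± 16.96 (control). At the low end were MRPL42 (mL42) at 5.37 ± 0.795 (FAP) and 4.88 ± 0.0927 (control) and MRPL50 (mL50) at 11.2 ± 0.301 (FAP) and 10.8 ± 0.344 (control). MRPS23 (mS23) was at 11.5 ± 1.55 (FAP) and 10.5 ± 0.679 (control). All 3 have long annotated transcripts, of 15582 bases for MRPL42, 5621 for MRPS23 and 3332 for MRPL50. In CPM, with no scaling by length, MRPL42 had 83.7 ± 12.4 in FAP libraries and 76.0 ± 1.44 in controls. MRPS23 had 64.7 ± 8.73 and 59.0 ± 3.82 CPM in the same groups. MRPL50 was low on this scale too, at 37.2 ± 1.00 in FAP libraries and 35.9 ± 1.15 in controls, where the median member had 92.8 and 104 CPM. MRPL33 and MRPL36, the top genes per kilobase, have short transcripts of 461 and 610 bases. In CPM MRPL33 had 217 ± 15.3 in FAP libraries and 266 ± 17.3 in controls, and MRPL36 191 ± 31.5 and 229 ± 7.22. On that scale both lay below MRPS34 (319 ± 11.7 and 376 ± 32.6) and MRPL12 (334 ± 26.8 and 329 ± 24.3).

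MRPS24 was the 1 member with no counts. It was listed at 0 in all 6 libraries, which allows at most 0.478 CPM in FAP libraries and 0.547 CPM in controls for counting error alone. The read-through gene URGCP-MRPS24, annotated over it on the same strand, was also at 0 in all 6, while its other partner URGCP was at 22.5 ± 1.53 CPM in FAP libraries and 20.6 ± 1.13 in controls. How reads that overlap several annotated genes were counted is not given in the sources used here, and the part of this in the 0 of MRPS24 was not tested. Among the other members, 8 overlap a gene of at least 10 CPM in controls. Those with the larger partners were MRPL24, on the same strand as HDGF (485 CPM in FAP libraries and 527 in controls), and MRPL36, opposite NDUFS6 (527 and 580 CPM in the same groups). Without a stated strand setting such counts are uncertain. The 3 pseudogenes of the family with rows in the table summed to 7.15 CPM in FAP libraries and 4.99 in controls, so little signal sat on annotated copies.

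No member passed the test between vectors. Of 76 tested, 0 were called at an adjusted p under 0.05 by edgeR, with 0.224% of all 13373 tested genes called. At an unadjusted p under 0.05 there were 10, or 13.2%, against 9.91% of all genes. This excess did not hold in every setting. Scaling by library totals gave 4 members (5.26%), against 10.6% of all genes. Leaving out control replicate 1 or 2 also gave 4, against 6.77% and 6.45% of all genes. A filter of 10 CPM in 3 libraries gave 8 members (10.5%), against 11.8% of the genes that passed it. DESeq2 called 1 member (MRPS9, with 0.568% of genes called), edgeR with no low-count filter 2 (MRPS9 and MRPS25, with 0.718%), and limma-voom 0 (with 0.157%). The other settings with 0 members called had 0.142% of genes called with library totals, 0.298% with a filter of 10 CPM, 0.329% with a replicate block and 0.165% with an offset for transcript length and GC. Leaving out FAP replicate 1 or 2 gave 0 members with 0.274% and 0.0449% of genes called, and leaving out control replicate 1, 2 or 3 gave 0 with 0.0288%, 0.0505% and 0.0225%. All 10 of the reported fit had lower values in FAP libraries, where 5.3% of all genes had an unadjusted p under 0.05 with lower values and 4.61% with higher values. The largest differences were small: log2 fold changes ran from -0.48 to 0.25, and the median SE was 0.11. In a simulation on 13134 genes at these depths edgeR recovered 70% of genes changed 1.5-fold, and smaller changes were missed more often. The changed genes were of at least 10 CPM and were not chosen from the members. Over all tested genes the median SE was 0.157, larger than in the members. The 70% therefore does not give the recovery of members, which was not tested. That simulation had 161 calls, against 30 in the reported fit. With more calls the adjustment lets larger unadjusted p-values pass, so recovery in the data themselves may be lower.

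The log2 fold changes lay slightly below 0 on balance. In the large subunit 34 of 49 were negative, with a median of -0.066, and in the small subunit 20 of 27, with a median of -0.045. Over all tested genes 49.3% were negative and the median was 0.0031. Scaled by library totals instead, the medians were -0.011 for the large and 0.0091 for the small subunit against 0.0568 for all genes, so the sign of the small subunit median turned while both stayed below the median of all genes. Under that scaling 36 of 76 members (47.4%) were negative, against 39.2% of all genes, where the reported fit had 54 (71.1%). The 30 large subunit proteins with bacterial homologues had a median of -0.047 and the 21 mitochondria-specific ones -0.096, here with MRPS18A and MRPS30 in the large subunit. For the small subunit the same 2 medians were -0.040 (15 tested) and -0.075 (10 tested). In the summed level the large subunit genes had 5850 ± 381 CPM in FAP libraries and 6205 ± 267 in controls, and the small subunit genes 3068 ± 121 in FAP libraries and 3259 ± 189 in controls (SD, n = 3 each). Both sums overlapped between the groups. The ratio of large to small sums was 1.91 ± 0.0514 in FAP libraries and 1.90 ± 0.0292 in controls.

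**Figure D2:**
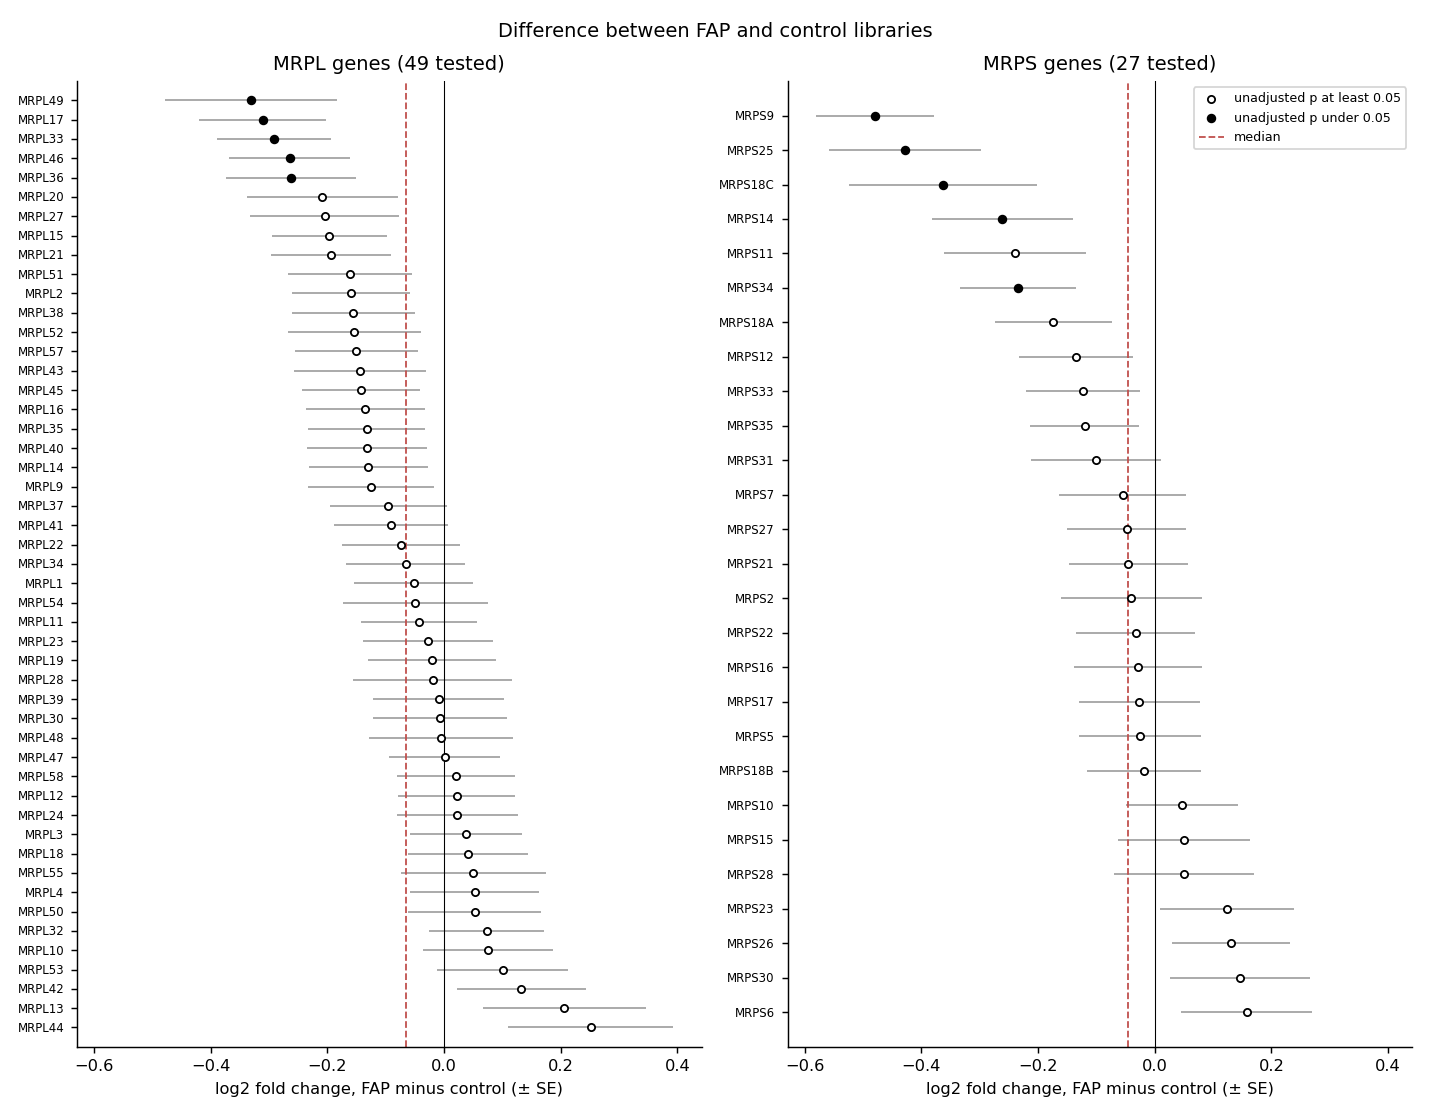
Log2 fold change (FAP minus control) of each tested member with its SE, ordered within MRPL and MRPS genes. Filled points mark the 10 members with an unadjusted p under 0.05, all on the negative side, and dashed lines mark the medians of -0.066 and -0.045.

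The single libraries show how far this balance rests on few of them. Summed over both subunits, members had 9379, 8989 and 8384 CPM in FAP replicates 1, 2 and 3, against 9863, 9562 and 8967 CPM in control replicates 1, 2 and 3. In both groups the sum fell from replicate 1 to replicate 3. Control replicate 3 lay just below FAP replicate 2, and FAP replicate 3 was lowest of all. Against the mean log2 level of the controls, the median member deviated by -0.036, -0.051 and -0.134 in FAP replicates 1, 2 and 3 and by 0.050, 0.017 and -0.055 in control replicates 1, 2 and 3. FAP replicate 3 was the lowest of the 6 libraries in 41 of 76 members (53.9%), against 20% of all tested genes. Control replicate 1 was the highest in 29 members (38.2%, against 20.1% of all genes), and FAP replicate 1 in 23 (30.3%, against 21.7%). Within FAP replicate 1, 27 members (35.5%) lay above all controls and 23 (30.3%) below all controls, against 30.7% of all tested genes on each side. In FAP replicate 2, 13 (17.1%, against 25.5% of all genes) lay above and 28 (36.8%, against 25.9%) below. In FAP replicate 3, 5 (6.58%, against 29.6%) lay above and 47 (61.8%, against 28.4%) below.

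**Figure D3:**
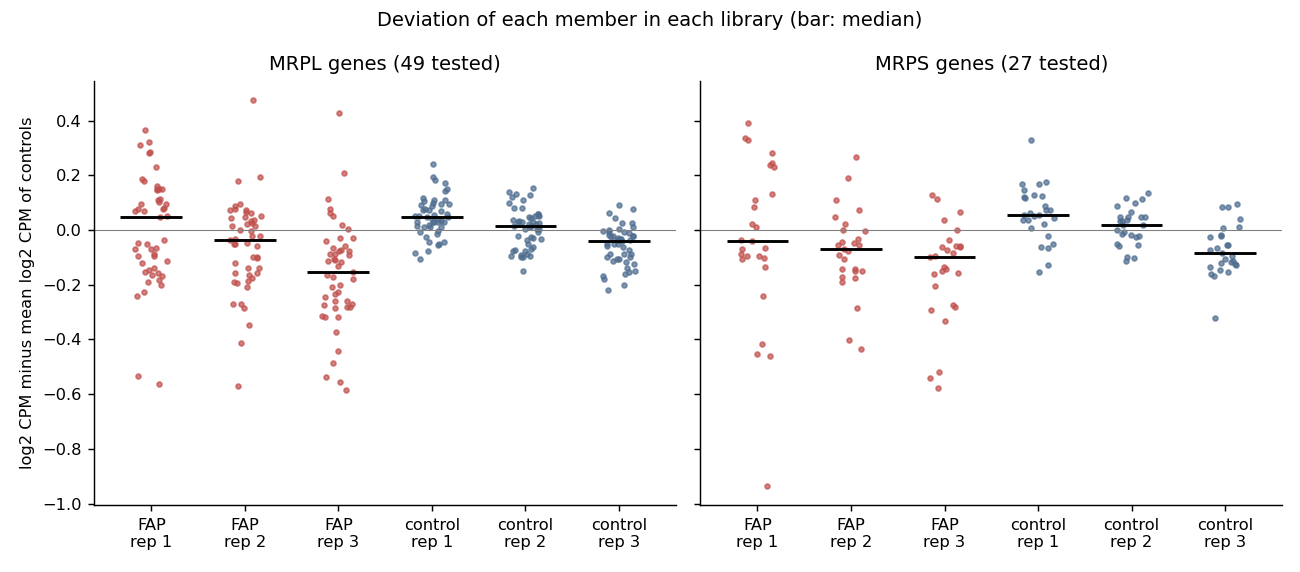
Log2 CPM of each tested member minus its mean log2 CPM in the controls, by library, for MRPL genes (left) and MRPS genes (right), with FAP libraries left of controls. Bars mark medians; the large subunit median is 0.049 in FAP replicate 1 and -0.153 in FAP replicate 3, while the small subunit medians lie between -0.097 and -0.040 in FAP libraries and between -0.084 and 0.055 in controls.

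Replicates of a member varied by a median coefficient of variation of 8.47% among FAP libraries and 6.49% among controls, and by 4.97% between FAP replicates 1 and 2 alone. That last value comes from an SD of 2 libraries, which tends to be smaller than one of 3, and no other pair was compared. The groups did not overlap in 11 members, all with lower values in FAP libraries (14.5%, against 7.99% of all tested genes), and in 0 with higher values (against 7.96%). These 11 were MRPL33, MRPL17, MRPL46, MRPL36, MRPL15, MRPL16, MRPL34, MRPS9, MRPS34, MRPS18A and MRPS35. Without FAP replicate 3 the member medians were -0.040 for the large and -0.033 for the small subunit, and without FAP replicate 1 they were -0.107 and -0.103.

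MRPS9 (uS9m; Entrez 64965, GRCh38.p14 chromosome 2, 105038069 to 105099960), the counterpart of a bacterial protein that reaches the transfer RNA in the small subunit, came closest to the threshold. It had 75.5, 78.6 and 69.6 CPM in FAP replicates 1, 2 and 3, against 111, 97.1 and 104 CPM in control replicates 1, 2 and 3. All FAP libraries lay below all controls, with a gap wider than the spread in either group. The log2 fold change was -0.48 (SE 0.10), with an unadjusted p of 1.219e-04 and an adjusted p of 0.0526 in edgeR's test. DESeq2 called it (adjusted p = 0.00817), as did edgeR with no low-count filter (0.00473) and without FAP replicate 3 (0.0171), and over all 14 alternatives the adjusted p ran from 0.00473 to 0.345. The highest value came from the fit without control replicate 1. In all 14 the log2 fold change stayed between -0.52 and -0.43.

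MRPS25 (mS25; chromosome 3, 15042251 to 15065315), a mitochondria-specific protein, had 79.3, 89.0 and 75.7 CPM in FAP replicates and 136, 108 and 86.8 CPM in control replicates 1, 2 and 3. The groups overlapped, since control replicate 3 lay below FAP replicate 2, and control replicate 1 stood highest. Its log2 fold change was -0.43 (SE 0.13, edgeR adjusted p = 0.250), and with no low-count filter the adjusted p was 0.0224. Leaving out control replicate 1 gave -0.26 (SE 0.13, adjusted p = 0.743). MRPS34 (chromosome 16, 1771895 to 1773134) had 317, 332 and 308 CPM in FAP libraries and 406, 379 and 342 CPM in controls. Its groups did not overlap, by a narrow margin between FAP replicate 2 and control replicate 3 (log2 fold change -0.23, SE 0.10, edgeR adjusted p = 0.439). MRPS14 (uS14m), another universal protein, had 33.5, 42.0 and 36.5 CPM in FAP libraries and 40.9, 45.8 and 47.8 CPM in controls, with overlap at 1 library of each group (-0.26, SE 0.12).

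**Figure D4:**
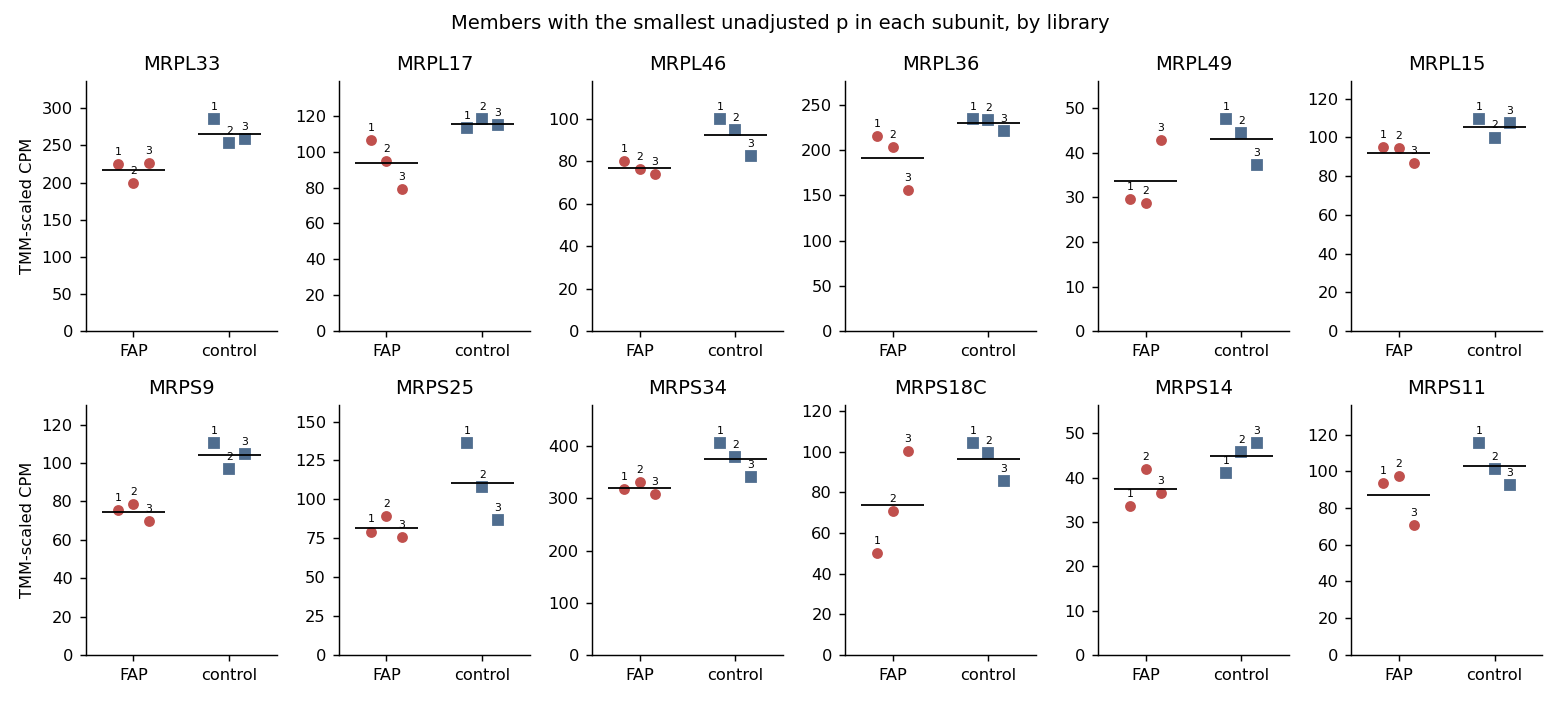
TMM-scaled CPM by library for the 6 MRPL genes (top) and 6 MRPS genes (bottom) with the smallest unadjusted p; circles are FAP libraries, squares are control libraries, numbers give the replicate and lines the group mean. The groups of MRPS9 are apart (69.6 to 78.6 against 97.1 to 111 CPM), while in MRPS18C and MRPL49 FAP replicate 3 lies among the controls.

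Of the 3 paralogues that descend from bacterial S18 none was called in the reported fit, and their log2 fold changes ran from -0.36 to -0.02. MRPS18C had 50.1, 70.9 and 100 CPM in FAP replicates 1, 2 and 3, against 104, 99.1 and 85.3 CPM in controls. FAP replicate 3 lay within the controls and the other two FAP libraries below them. The log2 fold change was -0.36 (SE 0.16, edgeR adjusted p = 0.461), and without FAP replicate 3 it was -0.64 (SE 0.12, adjusted p = 6.16e-04). Without FAP replicate 1 it was -0.16 (SE 0.13, adjusted p = 0.721). MRPS18A had 85.7, 82.6 and 75.7 CPM in FAP libraries and 93.9, 94.7 and 86.4 CPM in controls, a narrow separation (-0.17, SE 0.10). MRPS18B had 256, 277 and 246 CPM in FAP libraries and 275, 275 and 241 CPM in controls, with overlapping ranges (-0.02, SE 0.10). The difference between the paralogues was not tested.

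Among large subunit genes the smallest p belonged to MRPL33 (chromosome 2, 27771719 to 27779733), with 225, 199 and 227 CPM in FAP replicates and 285, 253 and 259 CPM in control replicates 1, 2 and 3. Every FAP library was below every control (log2 fold change -0.29, SE 0.10, edgeR adjusted p = 0.314). MRPL17 (bL17m; chromosome 11, 6680385 to 6683340), next to the exit of the peptide tunnel in bacterial ribosomes, had 106, 94.7 and 79.4 CPM in FAP libraries and 113, 118 and 115 CPM in controls. Here the controls were tight and the FAP libraries spread widely below them (-0.31, SE 0.11, adjusted p = 0.337 by edgeR), with -0.21 (SE 0.10) when FAP replicate 3 was left out. MRPL36 showed the same form, with 216, 203 and 156 CPM in FAP libraries and 234, 233 and 221 CPM in controls (-0.26, SE 0.11), and its value without FAP replicate 3 was -0.13 (SE 0.10). MRPL15 (uL15m) had 95.3, 94.6 and 86.6 CPM in FAP libraries and 109, 100 and 107 CPM in controls, without overlap (-0.20, SE 0.10).

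MRPL49 (mL49), a mitochondria-specific protein, had 29.5, 28.8 and 42.9 CPM in FAP replicates 1, 2 and 3 and 47.5, 44.4 and 37.2 CPM in controls. As in MRPS18C, FAP replicate 3 lay among the controls, and the log2 fold change was -0.33 (SE 0.15, edgeR adjusted p = 0.461) with it and -0.55 (SE 0.14, adjusted p = 0.0171) without it. Leaving out FAP replicate 2 gave -0.22 (SE 0.16). In that fit without FAP replicate 3, 5 members were called (6.58%, with 1.86% of genes called), namely MRPL49, MRPS18C, MRPS9 and, outside the naming rule and chosen after their values were seen, MRPL20 and MRPL13. MRPL20 (bL20m) had 144, 176 and 229 CPM in FAP libraries and 229, 212 and 196 CPM in controls, with a log2 fold change of -0.21 (SE 0.13) over all libraries, -0.40 (SE 0.10) without FAP replicate 3 and -0.063 (SE 0.11) without FAP replicate 1. MRPL13 (uL13m) was the 1 of the 5 with higher values, at 177, 197 and 118 CPM in FAP libraries against 157, 133 and 137 CPM in controls. Its log2 fold change was 0.21 (SE 0.14) over all libraries, 0.40 (SE 0.10) without FAP replicate 3 and 0.046 (SE 0.15) without FAP replicate 2. FAP replicate 3 fell on the other side of the controls, or among them, in 4 of these 5 genes, MRPS9 being the exception.

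MRPL46 (mL46) and MRPS11 (uS11m) lie head to head on chromosome 15, with starts 320 bases apart, so that the MRPL46 window printed above overlaps that of MRPS11. MRPL46 had 80.1, 76.2 and 73.7 CPM in FAP replicates and 99.7, 94.8 and 82.3 CPM in control replicates 1, 2 and 3, and MRPS11 had 93.5, 97.3 and 70.6 CPM against 115, 101 and 92.7 CPM in the same order. Both had their highest library in control replicate 1 and their lowest in FAP replicate 3, and the log2 fold changes were -0.26 (SE 0.10) and -0.24 (SE 0.12), neither called. For MRPS11 the value was -0.10 (SE 0.11) without FAP replicate 3 and -0.16 (SE 0.14) without control replicate 1. Such neighbours are common in the family: of 69 members with a mapped start, 20 (29%) had a protein-coding start on the other strand within 1000 bases upstream, against 16.2% of 10053 tested coding genes. The closest were MRPL27 and EME1 (45 bases) and MRPL49 and FAU, a cytosolic ribosomal protein gene (49 bases). FAU was at 983 CPM in FAP libraries and 1148 in controls (-0.22). MRPS12, 181 bases from SARS2, the mitochondrial seryl-tRNA synthetase gene, had -0.14 (-0.058 without control replicate 2), against 0.03 for SARS2.

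Members with roles beyond the ribosome core showed small differences. MRPL12 had 363, 327 and 311 CPM in FAP libraries and 344, 341 and 301 CPM in controls (log2 fold change 0.02, SE 0.10). MRPL58 (mL62), a peptidyl-tRNA hydrolase that frees stalled ribosomes, had 95.9, 86.4 and 81.3 CPM in FAP libraries and 86.2, 88.5 and 84.5 CPM in controls (0.02, SE 0.10). In both genes the group ranges overlapped, though FAP replicate 1 lay above all controls. In MRPL58 FAP replicate 3 lay below all controls. MRPS30 (mL65) had 47.6, 48.6 and 38.7 CPM in FAP libraries and 38.5, 39.9 and 42.7 CPM in controls, FAP replicate 3 falling within the controls (0.15, SE 0.12). Without FAP replicate 3 its log2 fold change was 0.25 (SE 0.12), and without FAP replicate 2 it was 0.08 (SE 0.14). The highest log2 fold change of the family was that of MRPL44 (mL44), a protein with a ribonuclease III fold, at 0.25 (SE 0.14, unadjusted p of 0.0905, named after its value was seen), and 0.15 (SE 0.15) without FAP replicate 3. KGD4, once named MRPS36, now placed in the 2-oxoglutarate dehydrogenase complex, was at 70.7 ± 13.0 CPM in FAP libraries and 66.7 ± 3.29 in controls.

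The machinery around the mitoribosome had no called member in any list. The 5 mitoribosome proteins with other symbols (DAP3, PTCD3, CHCHD1, AURKAIP1 and GADD45GIP1) all had negative log2 fold changes, with a median of -0.121 and the smallest unadjusted p at DAP3 (-0.18, SE 0.10), CHCHD1 (-0.13) and GADD45GIP1 (-0.12). Of 17 tested translation factors 8 were negative (median 0.0017), of 30 assembly factors 12 (0.026) and of 18 regulators of mitochondrial transcription and biogenesis 8 (0.0090). The list of aminoacyl-tRNA synthetases had 10 of 22 negative (median 0.014). It also holds GATB, GATC and QRSL1, which are amidotransferase subunits and not synthetases. The protein import list had 17 of 29 negative and a median of -0.089. SLIRP, which stabilises mitochondrial messenger RNA, was at 651 ± 52.3 CPM in FAP libraries and 809 ± 23.0 in controls (-0.31, SE 0.10), and TOMM7, a subunit of the outer membrane import channel, at 444 ± 50.8 in FAP libraries and 575 ± 44.4 in controls (-0.37, SE 0.11). The next import genes were TOMM40, the channel itself (-0.29), and TIMM8B, a chaperone of the intermembrane space (-0.27). Among translation factors GUF1, a back-translocase of the elongation factor family, had 0.34 and the elongation factor TSFM -0.25. The assembly list was led by RBFA, a small subunit assembly factor (-0.28), the rRNA methyltransferase MRM1 (-0.27) and MTERF3 (0.26). Among the synthetases, IARS2 and YARS2, the isoleucyl and tyrosyl enzymes, had log2 fold changes of 0.21 and 0.23. The transcription factor TFAM was at 153 ± 3.62 and 135 ± 6.76 CPM in FAP and control libraries (0.18, SE 0.10), and YY1 at 121 ± 4.28 and 105 ± 6.04 CPM (0.21, SE 0.10). The coactivator PPARGC1A was barely detected, at 1.182 CPM in FAP libraries and 2.191 in controls (-0.97, SE 0.45).

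A lean to negative values was also present in 2 other sets of genes for large complexes. Cytosolic ribosomal protein genes had a median of -0.071 with 62 of 84 negative, and nuclear respiratory chain genes -0.068 with 51 of 77 negative. Unadjusted p-values under 0.05 numbered 4 of 84 (4.76%) and 10 of 77 (13.0%) in these lists, and 0 were called. The smallest p among respiratory chain genes were those of NDUFS7 (0.44), NDUFA1 (-0.35) and NDUFA12 (-0.32), subunits of complex I, and RPL24 (-0.30) was among the 3 smallest in the cytosolic ribosomal protein genes. These sets share the libraries. Transcript length was summarised for the mitoribosome genes only, with a median of 1253 bases against 2880 for the tested genes with a length. With a per-library offset for transcript length and GC content the mitoribosome medians were -0.048 (large) and -0.011 (small), against -0.0056 for all genes. Medians under this offset are not given for the other 2 sets, and the part of transcript length in the lean was not tested.

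**Figure D5:**
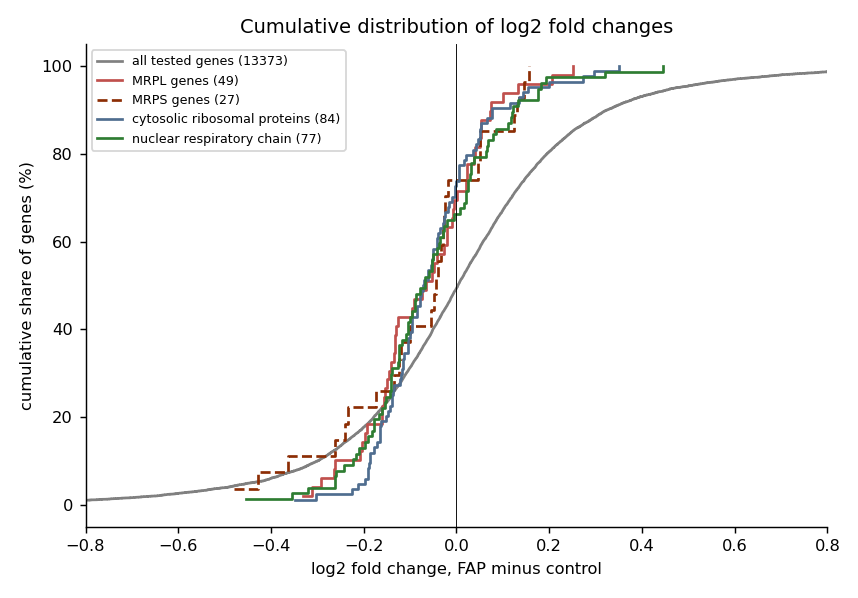
Cumulative share of genes (percent) against log2 fold change (FAP minus control) for all 13373 tested genes, MRPL and MRPS genes, cytosolic ribosomal protein genes and nuclear respiratory chain genes. The 4 gene sets have medians between -0.071 and -0.045, left of all genes, and rise more steeply, with fewer members than all genes at either extreme.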

How the data were processed

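RNA of 6 libraries was sequenced by DRUG-seq. The authors deposited 1 table of whole-number read counts per Entrez gene, not normalized. HISAT2, featureCounts, Subread and GRCh38 are named in the submitters' processing notes; their versions, the strand setting and any use of molecular identifiers are unknown from these sources. Symbols and positions came from RefSeq (GRCh38.p14; 27745 of 28395 IDs matched) and transcript lengths from GENCODE. Level per kilobase used the median length of protein-coding transcripts matched to a RefSeq mRNA, and the length and GC offset the longest coding transcript (97.4% of tested genes had one).

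R 4.3.3 with edgeR 4.0.16 was used for the tests. After TMM and filterByExpr (min.count 10, min.total.count 15), FAP minus control was tested on 13373 genes by the quasi-likelihood F test without covariates, two-sided, with Benjamini-Hochberg adjustment at 0.05. SE was taken as the absolute log2 fold change over the root of F. The fitted biological coefficient of variation was 11.8%. Alternatives used DESeq2 1.42.0 (independent filtering off), limma 3.58.1 (voom) and mgcv 1.9.3 (offset). The fit was tested on simulated data with 50 genes changed at each of 4 fold sizes, all of at least 10 CPM, where 14 of 161 calls were false. Intervals and limits of 0 counts cover counting error only. Figures were drawn with matplotlib 3.10.9.

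Named members are the 6 with the smallest p in each subunit, in each subunit the highest 3 and lowest 2 per kilobase, MRPS18A to C, MRPL12, MRPL58, MRPS30 and MRPS36, and, from the companion lists, the 3 with the smallest p in each. A few genes that this rule names are not reported here. The members, lists and motifs were chosen with earlier results of these data known.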

Additional observations from a re-analysis of the deposited data

How the results depend on the processing

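The 14 alternatives left the picture of few or no called members mostly in place. DESeq2 called 76 genes and 1 member, the fit with no low-count filter 152 genes and 2 members, and the fit with library totals 19 genes and 0 members, against 30 and 0 in the reported fit. Leaving out 1 library each gave 3 to 248 genes and 0 to 5 members. The 248 and the 5 came without FAP replicate 3, and 3 to 7 genes were called without any 1 control or without FAP replicate 2. The cause was not tested. The large subunit median ran from -0.107 to -0.040 in these fits and the small subunit median from -0.103 (without FAP replicate 1) to -0.021. With MRPS18A and MRPS30 moved to the large subunit both medians were as reported, -0.066 and -0.045.

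Signs turned in members near 0. MRPS18B had log2 fold changes of 0.038 with library totals and 0.055 with the length and GC offset, and -0.081 to 0.020 with 1 library left out. MRPL50 had -0.016 with the offset. MRPL12 ran from -0.039 to 0.070 and MRPL58 from -0.040 to 0.073 with 1 library left out. Among the named members 265 of 280 alternative values kept direction and side of the threshold, and 6 newly passed it. FAP passed throughout, with log2 fold changes of 8.46 to 9.86 with 1 library left out.

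Whether replicate numbers pair the libraries is not in the labels. Over genes of at least 10 CPM, deviations of same-numbered libraries correlated at -0.071, 0.098 and -0.012. For libraries with different numbers the correlations ran from -0.129 to 0.122. In the members alone, the summed level fell from replicate 1 to replicate 3 in both groups, and pairing was not tested there. With the replicate number as a block 44 genes and 0 members were called, and the medians were -0.066 and -0.050. In the simulation, on genes of at least 10 CPM, changes below 1.5-fold were often missed. Recovery among the members alone was not tested.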
